A study of Mus musculus with 12 samples.

Results

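The genes described here encode the translation initiation factors of the mouse and the proteins that regulate them directly. They were chosen by name, as protein-coding genes whose symbol starts with Eif and a digit from 1 to 6, leaving out Eif4e1b and Eif4enif1, which gave 54 genes of 25091 genes and repeats in the data. The 54 were sorted by function into start codon scanning factors (5 genes), eIF2 and alternative carriers of initiator tRNA (6), the eIF2B exchange factor (5), the eIF2alpha kinases (4), eIF3 (14), eIF4F with its helicase cofactors (10), the eIF4A3 helicases (2), the 4E-BP inhibitors (3), and the factors of subunit joining and later steps (5).

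Initiation places the ribosome on the start codon of an mRNA. The eIF4F complex (the cap-binding eIF4E, the scaffold eIF4G and the helicase eIF4A) opens the 5′ end, eIF3 bridges it to the small ribosomal subunit, and the small subunit scans with eIF1, eIF1A and the ternary complex of eIF2, GTP and initiator tRNA. eIF5 and eIF5B complete the joining of the large subunit, eIF2B recharges eIF2 with GTP, and 4E-BPs and eIF2alpha kinases restrain the process. Oocytes and early zygotes depend on the translation of stored maternal mRNAs, because transcription is silent or low.

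The study compared zygotes from superovulated B6D2F1 females of 8 to 10 weeks, collected 18 to 20 h after hCG according to the labels. Total RNA-seq was made from zygotes given an siRNA against Lsm1 (Lsm1_KD) or a scramble siRNA (Ctrl), and a few embryos were pooled per library. LSM1 is the subunit that marks the cytoplasmic LSM ring, which binds the 3′ ends of deadenylated mRNAs before decapping. For RIP-seq, zygotes were injected with Lsm1_3XFlag mRNA (FLAG) or, as the labels have it, with untagged Lsm1 mRNA (Ctrl RIP). Each lysate gave an input library (FLAG Input, Ctrl Input) and a pull-down on ANTI-FLAG M2 gel (FLAG IP, Ctrl IP), with a different library kit from the RNA-seq. The labels describe siRNA injection into zygotes, while the study's scheme for its oocyte-stage knockdown shows injection at the GV stage, and which of them gave these libraries is not stated. Each of the 6 groups had 2 libraries. The study calls them biologically independent and the labels do not say how separate they were, so p-values measure only the spread between these libraries.

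The RNA-seq libraries held 4636492 to 13968315 estimated counts each, and the RIP-seq libraries 9865512 to 31586450. Lsm1 itself stood at 61.7 and 69.7 CPM (counts scaled to the library total) in the Lsm1_KD libraries and 152 and 144 CPM in the Ctrl libraries, or -1.10 ± 0.22 on the log2 scale, with the SE after ± (adjusted p = 0.0118). In the RIP-seq it stood at 9931 and 14731 CPM in the FLAG Input and at 16.3 and 16.1 CPM in the Ctrl Input, so the control libraries held no excess of Lsm1 RNA, and their titles name IgG. Repeats took 12.7% of FLAG IP replicate 1 and 0.147% to 2.63% of the other RIP libraries. Oocyte and zygote markers summed to 17038 to 17733 CPM in Lsm1_KD and 14241 to 16334 CPM in Ctrl. Of the 17, 2 were called higher and 2 lower, where 6.45% of all features tested were higher and 4.56% lower. The 11 cumulus and granulosa markers summed to 3.24 to 7.93 CPM, with Fshr, Amh, Amhr2, Foxl2 and Ptx3 at 0 in all 4 libraries.

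The knockdown rests on 1 siRNA of 19 nt, shown because its sequence fixes which mRNAs its guide strand could pair with. It is written with T for U, with capitals for the 7 bases that pair with guide positions 2 to 8 (the seed), and the guide with the seed itself in capitals. It lies in the coding sequence of Lsm1 (plus strand, GRCm38.p6), across an exon junction between 25792216 and 25793685 of chromosome 8.
Lsm1 siRNA, sense: gatcaatttgcTAACTTAg
Lsm1 siRNA, guide: cTAAGTTAgcaaattgatc

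The complement of that seed, TAACTTA, occurred on the sense strand of 6 of the 54 initiation factor mRNAs, Eif2s1, Eif3f, Eif4h, Eif5a2 and Eif5b in the 3′ UTR and Eif3a in the coding sequence. Of these sites, 3 are shown in RefSeq sequence on GRCm38.p6, for the member with a site that fell, the one with the highest fold change and the one that is most abundant.
Eif3a, chromosome 19, minus strand, site at 60769922 to 60769928: agaacgcaaaaTAACTTAttacagagaaa
Eif4h, chromosome 5, minus strand, site at 134620104 to 134620110: acaccaataccTAACTTAagacagacatg
Eif5b, chromosome 1, plus strand, site at 38053475 to 38053481: gtgattattttTAACTTAgtattcctgtc

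Of the 11135 tested genes with a transcript that could be rebuilt from the genome, 13.2% held the same letters, in transcripts of all lengths, so 6 of 54 (11.1%) was close to the background. The log2 fold changes of the 5 tested members with a site, Lsm1_KD over Ctrl, were -0.85 for Eif3a, -0.40 for Eif2s1, 0.00 for Eif5b, 0.68 for Eif3f and 1.20 for Eif4h. Of these, only that of Eif3a passed the test. A match of letters is a description and not a site of action.

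Before the comparisons, the levels themselves differed widely among factors of 1 complex. In Ctrl zygotes, 16 of the 54 genes stood at 100 TPM (transcript abundance corrected for length and depth) or more, 23 between 10 and 100 TPM, and 15 under 10 TPM. The most abundant were Eif2s2, the beta subunit of eIF2 (1121 and 1153 TPM in the 2 Ctrl libraries), Eif5a, a factor of translocation and termination that carries hypusine (mean 1102 TPM), Eif2b1, the alpha subunit of eIF2B (861 and 1164 TPM), the helicase Eif4a1 (mean 979 TPM) and Eif1, the gatekeeper of start codon choice (940 and 716 TPM). The first 4 of these 5 each overlapped the next in the order over the Ctrl libraries, while Eif1 lay clear of Eif4e3, the next below it (mean 589 TPM). Over all 53 neighbouring pairs in the order, 42 overlapped.

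Subunits of the same complex were not present at like mRNA levels. Within eIF2, Eif2s2 had a mean of 1137 TPM, against 81.5 TPM for the alpha subunit Eif2s1 and 34.5 TPM for the X-linked gamma subunit Eif2s3x, and the Y-linked copy Eif2s3y was at 0 in all 4 RNA-seq libraries. Within eIF2B, Eif2b1 stood at 1012 TPM and the remaining subunits between 2.38 TPM (Eif2b5, the catalytic subunit) and 43.2 TPM (Eif2b3). Within eIF3, the WD-repeat subunit Eif3i stood highest at 494 TPM, followed by Eif3j1 at 172 TPM, and Eif3l stood at 4.55 TPM. The 4E-BP mRNAs were all low, at 2.48 to 11.9 TPM. Among the eIF2alpha kinases, Eif2ak1 (HRI) at 110 TPM and Eif2ak4 (GCN2) at 90.0 TPM were the main ones and Eif2ak2 (PKR) was at 0.949 TPM.

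**Figure D1:**
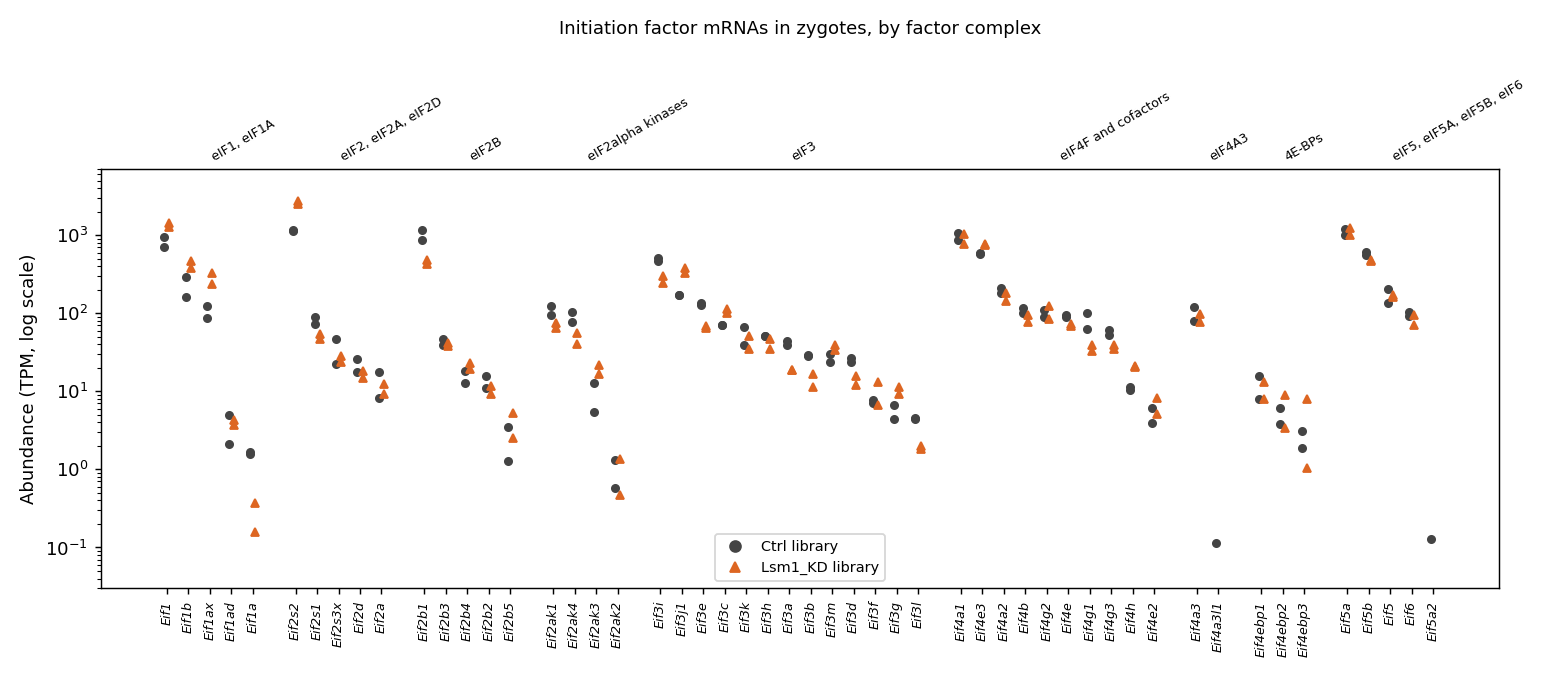
Abundance in TPM (log scale) of each initiation factor mRNA in the 2 Ctrl libraries (circles) and the 2 Lsm1_KD libraries (triangles), grouped by complex and ordered by the Ctrl mean. Genes with a Ctrl mean under 0.05 TPM and values of 0 are not drawn; Eif2s2 and Eif2b1 stand far above the other subunits of eIF2 and eIF2B.

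The order was different in the Ctrl Input of the RIP-seq, which came from another experiment and kit, so that kit and experiment cannot be told apart and no test was made. There the highest means were those of Eif1b (439 TPM), Eif2s2 (323 TPM), Eif1 (291 TPM) and Eif4a1 (283 TPM). Eif2b1 had 101 TPM in the Ctrl Input, against 1012 TPM in the Ctrl zygotes of the RNA-seq.

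Lsm1_KD was then compared with Ctrl to ask which initiation factor mRNAs changed in level. Of the 54 genes, 50 passed the filter on low counts, and 9 of them passed an adjusted p of 0.05 in edgeR, where 11.0% of all 11335 genes and repeats tested did. Of the 9, 7 rose (Eif1ax, Eif2s2, Eif3j1, Eif1b, Eif1, Eif3c and Eif4e3), with 6.45% of all tested features higher, and 2 fell (Eif2b1 and Eif3a), with 4.56% of all lower. The median log2 fold change was 0.11 over the 50 genes and 0.01 over all features. The groups did not overlap for 30 of the 50 (17 higher and 13 lower), and for 57.9% of all features (29.3% higher and 28.6% lower). Each library pooled a few zygotes, so a change in all of them and a change in some of them cannot be told apart. The 9 were spread over 5 of the 9 complexes, and in 3 of these complexes single subunits moved while their partners did not pass the test.

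**Figure D2:**
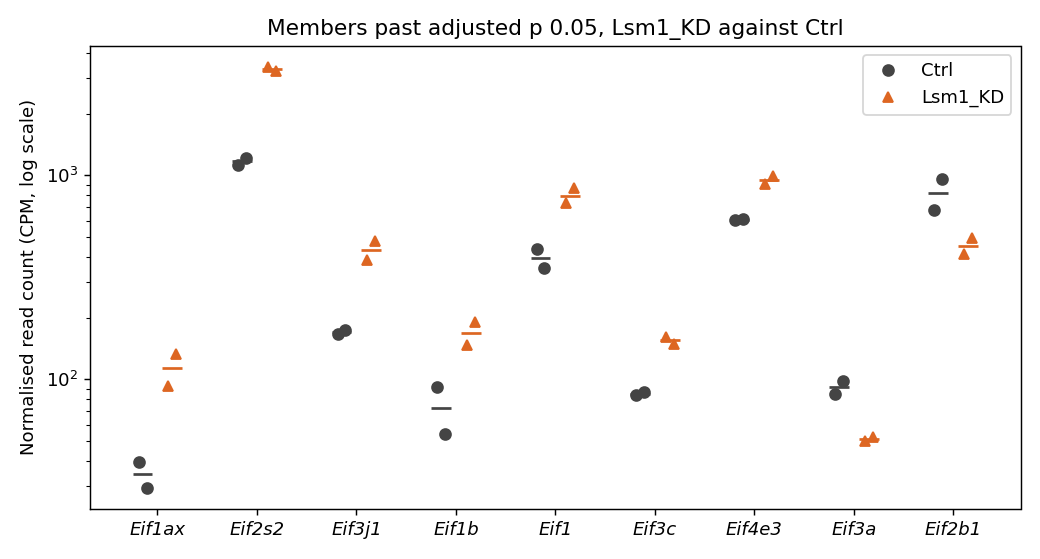
Normalised read counts (CPM, log scale) of the 9 initiation factor genes past an adjusted p of 0.05, in the 2 Ctrl libraries (circles) and the 2 Lsm1_KD libraries (triangles), with a bar at each mean. The groups do not overlap for any of the 9, and Eif2s2 is the most abundant, with 3245 and 3398 CPM in Lsm1_KD.

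Eif2s2 moved most in absolute terms. Its normalised read counts were 3398 and 3245 CPM in Lsm1_KD and 1129 and 1218 CPM in Ctrl, a 2.83-fold rise (log2 1.50 ± 0.19, adjusted p = 0.00179). The gene lies on chromosome 2 (154871410 to 154892906, GRCm38), and like each of the other 8 called genes it was quantified from 1 RefSeq transcript. The other eIF2 genes did not pass. Eif2s1 had 84.6 and 77.3 CPM in Lsm1_KD and 115 and 99.0 CPM in Ctrl (log2 -0.40, adjusted p = 0.27), and Eif2s3x gave a log2 fold change of -0.09 ± 0.33. Eif2d, which can bring initiator tRNA without eIF2, gave -0.13 ± 0.38. Of the 5 tested genes of this group, 1 passed the test.

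The rise of Eif2s2 was large enough to be seen in the sum over all 54 genes. Together they held 11712 and 12252 CPM of the library totals in Lsm1_KD and 9619 and 9312 CPM in Ctrl. Eif2s2 made up 28.1% and 26.0% of these counts in Lsm1_KD and 12.5% and 12.8% in Ctrl. Without it, the sums were 8418 and 9069 CPM in Lsm1_KD and 8419 and 8116 CPM in Ctrl, and the groups no longer stood clear of each other. The summed oocyte and zygote markers were also higher in both Lsm1_KD libraries, and their part in the members' sum was not tested.

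Among the 5 start codon scanning factors, 3 rose and none fell. Eif1ax, the X-linked gene of eIF1A, had 93.0 and 134 CPM in Lsm1_KD and 39.3 and 29.5 CPM in Ctrl (log2 1.72 ± 0.28, adjusted p = 0.00518), the highest fold change of the 9. Its gene lies on chromosome X from 159372178 to 159389621. Eif1 had 728 and 865 CPM in Lsm1_KD and 436 and 350.5 CPM in Ctrl (log2 1.02 ± 0.20, adjusted p = 0.0122), and its close paralog Eif1b had 147 and 190 CPM against 91.3 and 54.3 CPM (log2 1.21 ± 0.28, adjusted p = 0.0228). Eif1 lies on chromosome 11 (100319949 to 100322099) and Eif1b on chromosome 9 (120492606 to 120495327), and neither shared a stretch of 31 bases with another gene. Eif1ad, an eIF1A-domain protein, was low (2.20 to 5.12 CPM) and did not pass the test. Eif1a, the autosomal copy, was at 0.223 and 0.551 CPM in Lsm1_KD and 1.89 and 2.07 CPM in Ctrl, where 6.49% of its sequence was shared with Gm5039 and Gm2022 (log2 -2.21 ± 1.19, adjusted p = 0.26).

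These 3 genes have short transcripts in the data, of 1261 nt for Eif1, 917 nt for Eif1b and 926 nt for Eif1ax, and fold changes in this comparison went with length. Over the 50 genes, Spearman's rho between transcript length and log2 fold change was -0.33, and over all 11335 features -0.18, as a description across genes of the same 4 libraries. With the length trend of each library removed, Eif1ax still rose (log2 1.06), while Eif1 (0.65, adjusted p = 0.0588) and Eif1b (0.55, adjusted p = 0.204) no longer passed. The Eif1ax model in the data ends at 926 nt and that of the GRCm38.p6 annotation at 4865 nt, so its TPM and its length correction rest on the short model.

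eIF2B and the eIF2alpha kinases set how much eIF2 is active. Eif2b1 fell, from 680 and 965 CPM in Ctrl to 413 and 493 CPM in Lsm1_KD (log2 -0.86 ± 0.22, adjusted p = 0.0329), and its Ctrl libraries differed more between themselves than those of Lsm1_KD. The gene lies on chromosome 5 from 124570214 to 124579131. The other 4 subunits of eIF2B did not pass the test, with log2 fold changes from -0.05 (Eif2b2) to 0.96 (Eif2b5). Eif2b3, the second most abundant, had 29.1 and 33.7 CPM in Lsm1_KD and 28.6 and 25.1 CPM in Ctrl. None of the 4 kinases passed in edgeR, with 1 of them lower at an unadjusted p under 0.05. Of all 11335 features, 1463 were lower at that p. Eif2ak4 had 147 and 113 CPM in Lsm1_KD and 164 and 233 CPM in Ctrl (log2 -0.61 ± 0.24, adjusted p = 0.14), and Eif2ak1 81.0 and 98.7 CPM against 98.8 and 135 CPM (log2 -0.38, adjusted p = 0.35).

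eIF3 had the largest number of genes and moved in both directions. Of 13 tested, 2 rose and 1 fell, and the median was -0.05 on the log2 scale. Eif3j1, the loosely bound subunit that sits near the mRNA entry channel, had 383 and 475 CPM in Lsm1_KD and 166 and 174 CPM in Ctrl (log2 1.34 ± 0.20, adjusted p = 0.00385). It shares 94.1% of its 31-base stretches with Eif3j2, which had under 1 estimated count in every library of the RNA-seq and the RIP-seq, so how reads were split between the copies is uncertain. Eif3c, a core subunit, had 161 and 150 CPM against 83.7 and 86.3 CPM (log2 0.87 ± 0.21, adjusted p = 0.0265). Eif3a, the large scaffold subunit that pairs with Eif3c in the core, went the other way, with 49.6 and 52.4 CPM in Lsm1_KD and 85.1 and 98.6 CPM in Ctrl (log2 -0.85 ± 0.23, adjusted p = 0.0446). Eif3j1 lies on chromosome 2 (122028580 to 122053632), Eif3c on chromosome 7 (126546911 to 126566366) and Eif3a on chromosome 19 (60761116 to 60790693).

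The other eIF3 subunits did not pass. Eif3i, the most abundant in Ctrl, had 120 and 153 CPM in Lsm1_KD and 187 and 217 CPM in Ctrl (log2 -0.57 ± 0.22, adjusted p = 0.12), and 6.30% of its stretches are shared with 4930503E24Rik. Eif3b, Eif3d, Eif3e and Eif3l were also below 0, at -0.58 to -0.96, and Eif3f, Eif3g and Eif3m were above 0, at 0.68 to 1.17. Of these, Eif3e came closest, at 49.6 and 48.1 CPM against 75.2 and 82.6 CPM (adjusted p = 0.0873). With the length trend removed, Eif3i (log2 -1.05) and Eif3e (-0.93) passed as lower.

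Among the 10 genes of eIF4F and its cofactors, 1 passed in edgeR, Eif4e3, an eIF4E family member with an atypical cap-binding pocket. It had 906 and 997 CPM in Lsm1_KD and 601 and 614 CPM in Ctrl (log2 0.65 ± 0.18, adjusted p = 0.0466), and it lies on chromosome 6 from 99621879 to 99692873. Of the 3 eIF4E family genes described here, which leave out Eif4e1b, it had the highest level, at 589 TPM in Ctrl against 91.1 TPM for Eif4e and 4.96 TPM for Eif4e2. Eif4e itself had 175 and 193 CPM in Lsm1_KD and 195 and 192 CPM in Ctrl (log2 -0.07 ± 0.20). The helicase Eif4a1 had 924 and 724 CPM against 644 and 831 CPM (log2 0.16 ± 0.21), with overlapping groups, and Eif4a2, Eif4b and Eif4e all lay within 0.07 of 0 on the log2 scale.

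In this group 2 genes, named after their values were seen, missed the threshold narrowly in edgeR and passed under other settings. Eif4h, a cofactor of eIF4A, had 24.7 and 26.6 CPM in Lsm1_KD and 11.3 and 11.0 CPM in Ctrl (log2 1.20 ± 0.35, adjusted p = 0.0529), and it passed in DESeq2 with and without the length offset (adjusted p = 0.0296 and 0.0308) and without the filter (0.047). The scaffold Eif4g1 had 109 and 95.1 CPM against 141 and 236 CPM (log2 -0.89 ± 0.26, adjusted p = 0.056). Eif4g1 passed as lower in DESeq2 (adjusted p = 0.0136, and 0.0138 with the offset), without the filter (0.00294), in limma (0.0488), with the length trend removed (0.0346) and by library totals (0.0401).

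The later factors and the inhibitors did not move past the test. Eif5b, the GTPase of subunit joining, had 1886 and 2030 CPM in Lsm1_KD and 2004 and 1898 CPM in Ctrl (log2 0.00 ± 0.18). Eif5a had 556 and 706 CPM against 539 and 492 CPM (log2 0.29 ± 0.20), and Eif5 and Eif6 gave 0.28 and 0.04. Eif4a3, the helicase of the exon junction complex, gave 0.07 ± 0.29 and shares 30.8% of its 31-base stretches with the intronless copy Eif4a3l1. The 4E-BP genes Eif4ebp1 (3.34 and 5.79 CPM against 5.39 and 2.89 CPM) and Eif4ebp2 (2.89 and 7.99 CPM against 4.24 and 2.75 CPM) were low and overlapped between groups, with standard errors of 0.70 and 0.73 on the log2 scale. Eif4ebp3, at 0.551 to 4.01 CPM, had a standard error of 1.21.

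Of the 54 genes, 4 failed the filter on low counts in the RNA-seq. Eif2s3y had 0 counts in all 4 libraries, which allows up to 3 counts in each for counting error alone. Eif4a3l1 had 1.02 counts in Ctrl replicate 1, Eif5a2, a paralog of Eif5a, had 2.02 counts in Ctrl replicate 2, and Eif3j2 had under 1 count in each library.

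**Figure D3:**
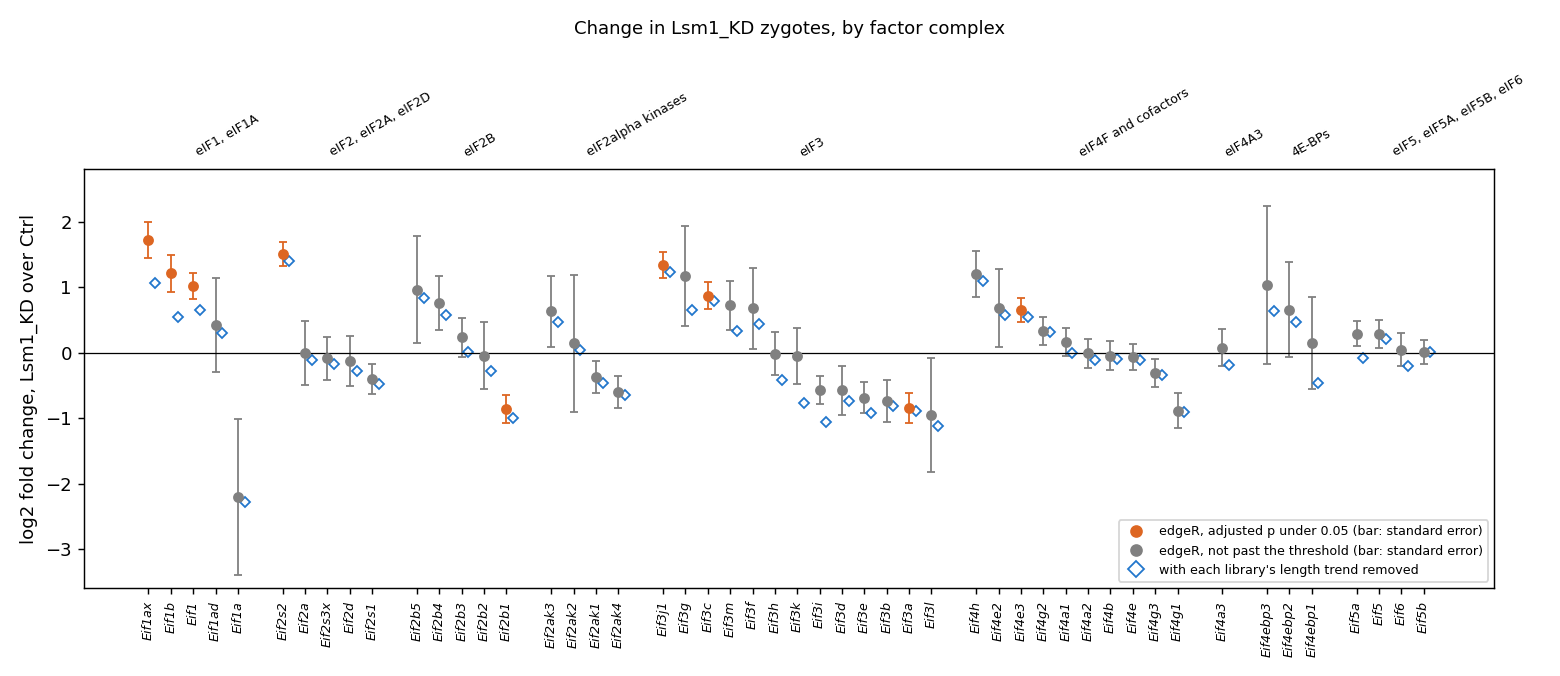
Log2 fold change of Lsm1_KD over Ctrl for the 50 tested genes, by complex, with the standard error as a bar; orange circles passed an adjusted p of 0.05 in edgeR and grey circles did not. Open diamonds give the value with the length trend of each library removed, which leaves Eif2s2 at 1.40 and Eif3j1 at 1.23 and lowers Eif1b to 0.55.

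Of the 9 calls, 3 (Eif2s2, Eif1ax and Eif3j1) stood under all 13 alternatives, with adjusted p up to 0.0147, 0.0486 and 0.0193. The other 6 calls kept their direction but did not always hold, and all alternatives are refits of the same libraries, not independent data. Eif1 lost it without Lsm1_KD replicate 2, Eif1b without Lsm1_KD replicate 2 or Ctrl replicate 2, and Eif2b1 without any 1 library other than Ctrl replicate 1. Eif3a (adjusted p of 0.0517 to 0.162), Eif3c (0.0779 or more) and Eif4e3 (0.068 to 0.212) lost it without any 1 of the 4 libraries. With all libraries kept, Eif1, Eif1b, Eif3c and Eif4e3 were lost in limma. Eif2b1, Eif3a, Eif3c and Eif4e3 were lost with the replicate block. Eif1, Eif1b and Eif4e3 were lost with the length trend removed, and Eif4e3 also by library totals. DESeq2 called 8 higher and 3 lower, the 9 with Eif4h and Eif4g1. Without any 1 of the 4 libraries, fewer members were called than the 7 higher and 2 lower with all. The split also moved with the scaling, to 6 higher and 3 lower by library totals and to 4 and 5 with the length trend removed, while all features went from 731 and 517 to 624 and 612 and to 485 and 738.

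Reads of a gene are divided by Salmon among its RefSeq transcripts, and for some genes the division differed between groups or experiments. The 3 given here were picked after the values were seen, carry no test, and rest on estimates among near-identical transcripts. For Eif4g2, which encodes an eIF4G-like protein that does not bind eIF4E, the transcript NM_001040131 had 46.6 and 39.3 TPM in Lsm1_KD and 11.9 and 14.8 TPM in Ctrl. Its other transcript NM_013507 had 75.9 and 44.2 TPM against 97.2 and 74.3 TPM, and the gene as a whole gave a log2 fold change of 0.33 ± 0.22. For Eif2ak4, NM_001355383 was at 0 in both Lsm1_KD libraries and at 23.2 and 19.4 TPM in Ctrl, and it was at 0 in all 8 RIP libraries too. For Eif5a, most of the TPM lay on NM_001166595 in the RNA-seq (777 to 1074 TPM), while in the RIP-seq that transcript had at most 0.592 TPM and NM_181582 took its place, with 194 and 196 TPM in the Ctrl Input.

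Other parts of the translation machinery were read from lists chosen by function. Over all features, 6.45% were called higher and 4.56% lower. Of 26 tested cofactors and regulators of initiation, 5 rose and none fell (median log2 fold change 0.00). The 5 were Paip1, a partner of poly(A)-binding protein (1326 and 1298 CPM in Lsm1_KD, 477 and 470 CPM in Ctrl, log2 1.47, adjusted p = 0.00179), Paip2, an inhibitor of the same protein (1.06), Pdcd4, an inhibitor of eIF4A (1.57), the helicase Ddx3x (1.17) and Abcf1 (0.77). They thus hold activators and inhibitors alike. Among 9 tested elongation factors only Eef2k, the kinase that inactivates eEF2, rose (log2 0.86, adjusted p = 0.0257). Of 5 termination and recycling factors none passed in edgeR, and at an unadjusted p under 0.05 there was 1 in each direction. Of all 11335 features, 1612 were higher and 1463 lower at that p. Beside these counts, 8 sperm and spermatid markers summed to 7.55 to 11.4 CPM in Lsm1_KD and 3.11 to 3.15 CPM in Ctrl, with Prm1, Tnp1, Tnp2, Odf1, Smcp and Gsg1 at 0 in all 4 libraries, and their part in the results was not tested.

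In the RIP-seq the inputs were compared first, to ask whether injected Lsm1_3XFlag mRNA went with other levels of these mRNAs. Of 53 tested genes none passed in edgeR, as was so for 0.0% of all 18972 features tested, and none of the 53 had an unadjusted p under 0.05, against 0.88% higher and 0.0474% lower over all features. DESeq2 called none of the 53 either. The fit did not call the injected Lsm1 RNA itself, which was 752-fold higher (log2 9.55 ± 2.74, adjusted p = 1), with a standard error above those of the genes named below. The absence of calls therefore does not show that the levels of these mRNAs were alike. Eif4h had 41.4 and 68.9 CPM in FLAG Input and 87.8 and 74.6 CPM in Ctrl Input (log2 -0.56 ± 0.47), and Eif6, an anti-association factor of the large ribosomal subunit, 87.1 and 112 CPM against 142 and 140 CPM (-0.50 ± 0.43). Eif2b4 and Eif1ad both gave -0.35 ± 0.34. Eif4a3l1 had 0.340 and 2.08 CPM against 0.779 and 0.312 CPM (1.12 ± 0.91), with overlapping groups, and Eif1a 0.468 and 0.773 CPM against 0.354 and 0.357 CPM (0.80 ± 0.83). Eif2s3y, near the floor, had 0 and 0.0407 CPM in FLAG Input and 0 CPM in both Ctrl Input libraries (2.10 ± 2.17). The Eif2s2, Eif1ax and Eif3j1 mRNAs that rose in Lsm1_KD gave -0.24 ± 0.71, -0.23 ± 0.41 and -0.15 ± 0.53 here.

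The pull-down was then set against its input, to ask which of these mRNAs were recovered on the FLAG gel. Most initiation factor mRNAs were less represented in FLAG IP than in FLAG Input, relative to all features: the median log2 ratio was -0.68 over the 53 genes and 0.49 over all features. Of the 53, 5 were higher in FLAG IP at an adjusted p of 0.05, a share of 9.43% where 21.0% of all features were, and 8 were lower, where 5.48% of all were, or 26.4% of all in either direction. By library totals, an alternative added after seeing the data, these medians became -0.22 and 1.17. With the length trend removed there were 5 higher and 32 lower, while all features went from 3975 and 1040 to 3273 and 5140. The low ratio was not particular to initiation factors. In the main fit the median was -0.84 for elongation factors and -0.77 for termination and recycling factors. It was -0.28 for cofactors and regulators of initiation and -1.31 for oocyte and zygote markers. Medians lay above 0 for cumulus and granulosa (3.34), sperm and spermatid (1.89) and blood and immune markers (2.97).

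The 5 higher genes were all rare in the inputs, at 0.312 to 8.34 CPM. Eif2ak2, the kinase PKR that is activated by double-stranded RNA, had 108 and 29.0 CPM in FLAG IP and 6.42 and 5.33 CPM in FLAG Input (log2 3.54 ± 0.53, adjusted p = 0.00312). Eif2ak3, the kinase PERK of the endoplasmic reticulum, had 39.7 and 19.4 CPM against 4.93 and 8.34 CPM (2.15 ± 0.43, adjusted p = 0.00876). In both, the first FLAG IP library was the higher one.

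The other 3 were copies or paralogs of abundant genes. Eif5a2 had 21.6 and 12.5 CPM in FLAG IP and 1.15 and 1.67 CPM in FLAG Input (3.59 ± 0.54, adjusted p = 0.00312). Eif1a had 14.7 and 4.01 CPM against 0.468 and 0.773 CPM (3.90 ± 0.85, adjusted p = 0.0116). With 11 and 19 counts in FLAG Input and 10 and 8 in Ctrl Input, Eif1a passed the filter on low counts only because of IP libraries. Its call is thus not independent of the filter. Eif4a3l1 had 4.86 and 19.6 CPM against 0.340 and 2.08 CPM (3.32 ± 0.92, adjusted p = 0.0261), and here the second FLAG IP library was the higher one. Eif4a3l1 shares 29.2% of its 31-base stretches, mainly with Eif4a3, so its counts are uncertain, as are those of Eif1a. Of the 8 genes with a mean input under 10 CPM, these 5 passed, and Eif2s3y, Eif4ebp1 and Eif4ebp3 did not. A high ratio was not confined to rare genes. Eif2s3x had 534 and 182 CPM in FLAG IP and 144 and 120 CPM in FLAG Input (adjusted p = 0.0723 in edgeR). In the Ctrl lysates it had 373 and 263 CPM in Ctrl IP and 131 and 113 CPM in Ctrl Input (adjusted p = 0.232).

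The 8 lower genes included 6 subunits of eIF3, and a fit on the 4 FLAG libraries alone called none of the 8 (5 higher and 0 lower). Eif3h had 24.2 and 40.5 CPM in FLAG IP and 79.5 and 82.4 CPM in FLAG Input (log2 -1.32 ± 0.35, adjusted p = 0.023), and Eif3m 14.1 and 16.3 CPM against 39.9 and 32.8 CPM (-1.26 ± 0.29, adjusted p = 0.0148). Eif3d, Eif3e, Eif3f and Eif3i gave -1.13 to -1.42. Of the 13 tested eIF3 genes, 12 lay below 0, with Eif3a at 1.05 ± 0.53 as the exception. By library totals, 8 of the 13 lay below 0, and fewer of them passed as lower. The remaining lower genes were Eif1b, with 70.3 and 94.9 CPM against 279 and 248 CPM (-1.67 ± 0.46, adjusted p = 0.0248), and the cap-binding Eif4e, with 73.0 and 132 CPM against 258 and 265 CPM (-1.35 ± 0.47, adjusted p = 0.05).

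**Figure D4:**
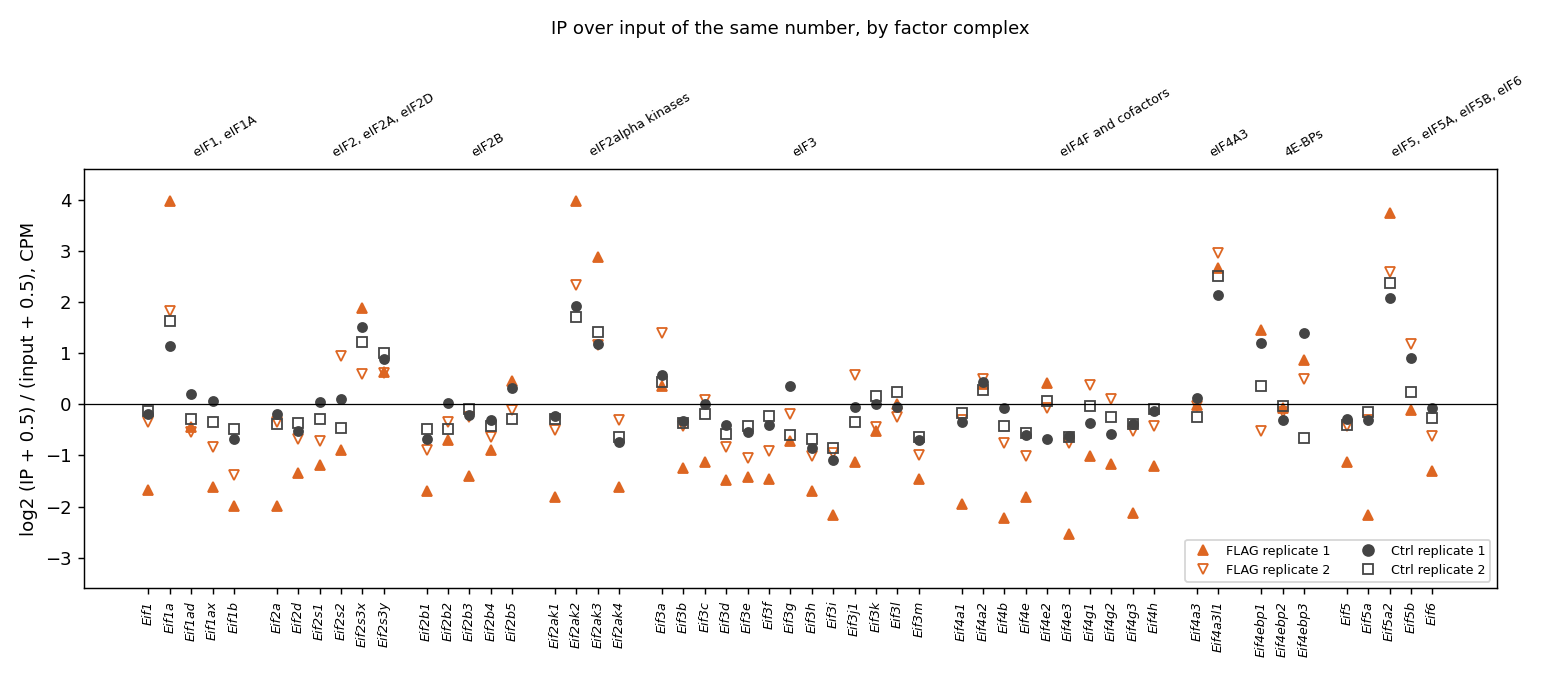
Log2 ratio of IP to input for each initiation factor gene, from CPM with 0.5 added, for the 2 FLAG pairs and the 2 Ctrl pairs of the same replicate number, by complex. The rare Eif2ak2, Eif2ak3, Eif1a and Eif5a2 lie above 0 in all 4 pairs, as does Eif4a3l1. So do Eif2s3y and the more abundant Eif2s3x, Eif3a and Eif4a2. The pair with FLAG IP replicate 1 lies lowest for most of the abundant genes.

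These calls rested on libraries that disagreed. FLAG IP replicate 1 had the lowest CPM of the 8 RIP libraries for 37 of the 53 genes (69.8%, against 34.2% of all features), and by library totals for 12 (22.6%, against 15.8%). Its TMM scaling factor was 1.87, with 0.872 to 1.02 in the other RIP libraries. Leaving out any 1 of the 8 RIP libraries changed the number of genes called. Such a fit leaves 1 library in a group, and no share over all features stands beside its calls. They describe the libraries and are not read as a result about these genes. Eif2s2 shows the disagreement, at 271 and 1130 CPM in FLAG IP and 504 and 588 CPM in FLAG Input. Apart from fits with 1 library left out, Eif2ak2 and Eif5a2 lost the call only in limma. Eif3h lost it only in the FLAG libraries alone. Eif3m lost it there, in limma and by library totals. The alternatives are refits of the same libraries and not independent data.

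The pull-down from Ctrl lysates gave the background of the gel. There 1 of the 53 passed, where 2.13% of all features did. It was Eif5a2, with 6.43 and 6.89 CPM in Ctrl IP and 1.13 and 0.936 CPM in Ctrl Input (log2 2.68 ± 0.53, adjusted p = 0.0249). Of all features, 2.12% were higher and 0.00527% lower. The call was lost without any 1 of the 4 Ctrl RIP libraries, and more genes were called without either FLAG IP library. Each such fit leaves 1 library in a group. With the lysate as a replicate block, Eif2ak2, Eif2ak3, Eif4a3l1 and Eif5a2 passed as higher, and the share of all features that did is not given here. Eif2ak2 had 18.9 and 16.5 CPM against 4.64 and 4.72 CPM (1.92 ± 0.50, adjusted p = 0.0756), and Eif2ak3 15.4 and 14.1 CPM against 6.52 and 4.99 CPM (1.36 ± 0.43, adjusted p = 0.13). Eif4a3l1 gave 3.05 ± 0.94 and Eif1a 2.304 ± 0.83. Eif2s3y had 5 and 9 counts in Ctrl IP, 5 and 4 in FLAG IP and at most 1 in any input. Like Eif1a, it passed the filter on low counts only because of IP libraries. The 5 genes higher in FLAG IP all had both Ctrl IP libraries above both Ctrl Input libraries too, as had 33.4% of all features.

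Whether the FLAG ratio differed from the Ctrl ratio was tested directly. None of the 53 genes passed in edgeR, as with 0.0% of all features. Lsm1, the mRNA of the tagged protein, did not pass either (difference 2.09 ± 2.71), so the absence of calls does not show that the FLAG and Ctrl ratios of these genes were alike. At an unadjusted p under 0.05 there was 1 higher and none lower, where 3.99% of all features were higher and 1.26% lower, and DESeq2 and limma-voom called none of the 53. The smallest p was that of Eif2ak2 (difference of log2 ratios 1.62 ± 0.69, adjusted p = 0.79). Eif1ax, Eif1b, Eif3f, Eif2s1 and Eif3e followed, at -1.07, -1.08, -0.91, -0.82 and -0.74. Whether any of the 53 passed depended on which FLAG IP library was left out, in fits that leave 1 library in that group. No share over all features stands beside those calls, so they are not read as a result about these genes.

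Markers of some other cells moved in the same pull-downs, in sums scaled to library totals without TMM. The 11 cumulus and granulosa markers summed to 17.3 and 106 CPM in FLAG IP and to 9.09 to 10.1 CPM in FLAG Input. Of the 10 tested, 4 passed as higher (Amhr2, Inhba, Tnfaip6 and Star), where 21.0% of all features did. The same markers summed to 12.1 to 17.4 CPM in Ctrl IP and 8.67 to 9.14 CPM in Ctrl Input. The 8 sperm and spermatid markers overlapped, at 7.07 to 19.7 CPM in FLAG IP and 7.45 to 9.08 CPM in FLAG Input, and none of the 5 tested passed. They summed to 9.59 to 15.9 CPM in Ctrl IP and 8.36 to 8.83 CPM in Ctrl Input. The 8 blood and immune markers summed to 5.35 to 38.9 CPM in FLAG IP against 1.38 to 1.77 CPM in FLAG Input, and to 4.23 to 10.3 CPM in Ctrl IP against 0.761 to 1.77 CPM in Ctrl Input. The 17 oocyte and zygote markers summed to 4196 to 5236 CPM in FLAG IP and 9286 to 9998 CPM in FLAG Input. Of them, 5 passed as lower, where 5.48% of all features did. These oocyte and zygote markers summed to 8082 to 8650 CPM in Ctrl IP and 9820 to 10500 CPM in Ctrl Input. The part of these cells in the ratios of Eif2ak2, Eif2ak3, Eif5a2, Eif1a and Eif4a3l1 was not tested.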

How the data were processed

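Total RNA-seq and RIP-seq of zygotes were deposited as Salmon quantifications of RefSeq transcripts and repeats (mm10), with estimated counts and TPM made by the authors. Trimming is credited to Trimmomatic in the submitters' notes and to another tool in the study. The deposited estimated counts were summed by gene symbol (37072 of 37366 transcripts matched a gene), kept with 347 repeats and rounded to whole numbers. TPM deposited by the authors was summed by gene and used for levels.

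The main test was edgeR 4.0.16 in R 4.3.3 (quasi-likelihood, TMM, filterByExpr), with Benjamini-Hochberg adjustment over all features tested and a call at an adjusted p of 0.05. RNA-seq and RIP-seq were fitted apart, the 8 RIP libraries together. CPM are TMM-normalised except for Lsm1, the sums over the initiation factor genes and the sums over marker lists, which are scaled to library totals. Errors after ± are standard errors. Scripts were tested on simulated data. Alternatives were DESeq2 1.42.0 (also with a length offset), RLE factors, no filter, limma 3.58.1 on log2(TPM + 1), a length trend offset, a replicate block, single libraries left out, for RIP-seq only the libraries compared, and library totals without TMM, the last added after seeing the data.

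Genes and lists were chosen with earlier results of these data known. Genes named were every one past the threshold in Lsm1_KD against Ctrl, the 2 most abundant of each complex, those with the 6 smallest p in each RIP comparison, and those failing the filter. Others were named after their values were seen. Input and IP of 1 number came from the same lysate according to the study. Their deviations correlated at 0.139 (FLAG) and 0.108 (Ctrl). Shared sequence was counted in stretches of 31 bases, and intervals for counts of 0 cover counting error only.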

Additional observations from a re-analysis of the deposited data

How the results depend on the processing

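In Lsm1_KD against Ctrl, genes called higher and lower numbered 8 and 3 in DESeq2 with or without the length offset and without the filter, 7 and 2 with RLE factors, 6 and 3 by library totals, 4 and 5 with the length trend removed, 3 and 5 in limma on log2(TPM + 1), 5 and 0 with a replicate block, 3 and 2 with block and length trend, and 3 to 5 and 0 to 2 with 1 library left out. RNA-seq replicate numbers share only a number (correlation of deviations -0.17). In FLAG IP over input the counts were 6 and 16 in DESeq2 with or without the length offset, 2 and 16 in limma, 5 and 32 with the length trend removed, 5 and 31 with block and length trend, 5 and 10 with the replicate block, 5 and 0 in its own libraries, 8 and 8 by library totals (added after seeing the data), and 2 to 8 and 0 to 34 with 1 library left out. In Ctrl IP they were 3 and 0 in DESeq2 with or without the offset, 0 and 1 in limma, 0 and 0 with the length trend removed and by library totals, 4 and 0 without the filter and with the replicate block, 1 and 4 with block and length trend, 7 and 6 in its own libraries, and 0 to 6 and 0 to 8 with 1 library left out. The difference of ratios gave 0 to 1 and 0 to 29 with 1 library left out. In the main fit, all features called higher and lower numbered 731 and 517 in Lsm1_KD, 3975 and 1040 in FLAG IP, and 403 and 1 in Ctrl IP. Calls over all features moved with the setting too, and most are not given here. The counts by setting are therefore not read as particular to initiation factors. A fit with 1 library left out leaves 1 library in a group, and its counts describe the libraries only. Directions turned for uncalled genes. With the length trend removed, Eif4a1 gave -0.0037, Eif4a3 -0.19, Eif4ebp1 -0.46 and Eif5a -0.084. With block and length trend these were -0.0059, -0.17, -0.44 and -0.089. In limma, Eif4a1 gave -0.13, Eif4a3 -0.18, Eif4ebp1 -0.12, Eif2b3 -0.092, Eif5b -0.28 and, in Ctrl IP, Eif2ak3 -0.23. Eif5b gave -0.0088 in DESeq2 and with RLE factors, -0.014 with the offset, -0.065 by library totals and -0.037 without the filter. With 1 library left out, the log2 fold change in Lsm1_KD ran from -0.045 to 0.33 for Eif4a1, -0.23 to 0.42 for Eif4a3, -0.33 to 0.66 for Eif4ebp1, -0.29 to 1.16 for Eif4ebp2 and -0.056 to 0.038 for Eif5b, and that of Eif4a3l1 between the inputs from -0.59 to 2.01. The causes were not tested.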
